A study of Mus musculus with 9 samples.

Results

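Surface receptors of monocytes and macrophages were followed in cultured mouse blood progenitors that had lost Drosha or Dicer. The 10 genes were taken by their names in the scanner files, Cd14, Tlr4, Fcgr1, Cx3cr1, Ccr2, Msr1, Marco, Mrc1, Csf1r and Emr1, of which Emr1 is the older symbol of Adgre1 and encodes F4/80. They are 10 of the 36413 named features of the array and 10 of the 23020 features that passed a filter on dim probes. Where a gene had several probes, the brightest over all 9 arrays stood for it. Each level below is the authors' deposited log2 intensity for that probe, so that differences between groups are log2 differences.

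The cells were LSK cells, the lineage-negative, Sca1-positive, cKit-positive fraction of bone marrow that holds stem cells and early progenitors, sorted from female mice. All groups carried the tamoxifen-inducible Cre recombinase at the Rosa26 locus (Gt(ROSA)26Sor CreERT2), so the control cells also carried the Cre and received its inducer. The Drosha-deleted group was Drosha fl/fl, the Dicer-deleted group was Dicer fl/fl, and for the control group the labels name the Cre allele and no floxed gene. The age of the mice is not given in the sources used here. Culture lasted 72 h, in wells of 50000 cells, with 4-hydroxytamoxifen (250 nM), SCF (50 ng/mL), both IL-6 and IL-3 (10 ng/mL of either) and fetal calf serum (10%). Each group had 3 one-colour arrays, which the labels do not tie to separate animals, so the p-values measure the spread between these arrays. Drosha and Dicer carry out successive steps of microRNA maturation, in the nucleus and in the cytoplasm, and the design asks which transcripts differ when either enzyme is lost.

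Several facts about the arrays touch the results. Drosha, named Rnasen on the array, was at 8.81 to 9.32 in the Drosha-deleted group, against 11.94 to 12.16 in the Dicer-deleted group and 11.85 to 12.04 in the control group. Dicer1 was at 8.97 to 9.18 in the Dicer-deleted group, against 10 to 10.8 in the Drosha-deleted group and 9.92 to 10.5 in the control group. Both genes were thus lowest where the labels say so, without overlap, although whether the Dicer1 probe lies in the deleted part of the gene was not checked. The scanner file of control replicate 2 stood apart, with 18.9% of its spots flagged as non-uniform and 93.1% of its probes called well above background, against 53.4% to 61.6% on the other arrays. The authors' values for that array correlated at 0.882 with its own scanner file and at 0.974 with the file of control replicate 3. Control replicate 3 was alone on its slide. Among the tested features, the authors' values of control replicates 2 and 3 correlated at 0.994 with each other and at 0.973 to 0.982 with the deletion arrays, whereas control replicate 1 correlated at 0.99 to 0.995 with the deletion arrays. Controls 2 and 3 together lay outside the range of all the other 7 arrays for 10454 features (45.4%), including Cd14 and Marco but none of the other 8 receptors.

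The labelled cell type was checked by 9 LSK markers (Kit, Ly6a, Cd34 and others), which were well above background on all arrays, at a mean of 11.33 to 12.06 in the Drosha-deleted group, 11.43 to 11.68 in the Dicer-deleted group and 11.52 to 11.77 in the control group. Markers of other blood cell types were present too. The 10 neutrophil markers on the array averaged 14.07 to 14.79 in the Drosha-deleted group, 13.16 to 15.03 in the Dicer-deleted group and 13.65 to 15.12 in the control group. Of the B-cell markers reported here, Vpreb1 was well above background on 9 of 9 arrays, Cd79a on 8, Ebf1 on 2 and Pax5 on 1. Of the 5 T-cell markers, Cd3e, Lck and Cd4 were well above background on 9 of 9 arrays, and Cd3g and Cd8a on 1 each. In RNA from a mixed culture, fewer cells of a type and less RNA per cell cannot be told apart, and this holds for every level below.

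As background, monocytes and macrophages develop from these progenitors through the receptor for colony-stimulating factor 1, encoded by Csf1r, and the transcription factors PU.1 and C/EBP switch on much of their surface equipment. The receptors described here do different jobs: CD14 and TLR4 bind and signal for bacterial lipopolysaccharide, FcγRI (Fcgr1) binds IgG, CX3CR1 and CCR2 steer migration, MSR1, MARCO and the mannose receptor (Mrc1) capture particles and glycans, and F4/80 (Emr1) is the classical mouse macrophage antigen. CCR2 is high on inflammatory monocytes and CX3CR1 on patrolling monocytes.

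The promoters of 3 receptors are shown because these genes differed without overlap between the Drosha-deleted and control arrays, Fcgr1 and Cx3cr1 downward and Marco upward. Cd14 and Msr1 also differed without overlap, both downward, but their promoters were not examined here. For Msr1 this is a description, because it passed the filter on dim probes through the control group, where it is high. Of all features, 10.5% were lower without overlap and 12.6% higher. The sequences shown are the 250 bases before the transcription start in RefSeq, build GRCm38.p6. They are written 5′ to 3′ on the gene's strand, with matches to the PU.1 purine box in capitals.
Fcgr1, chr3:96293970-96294219, minus strand: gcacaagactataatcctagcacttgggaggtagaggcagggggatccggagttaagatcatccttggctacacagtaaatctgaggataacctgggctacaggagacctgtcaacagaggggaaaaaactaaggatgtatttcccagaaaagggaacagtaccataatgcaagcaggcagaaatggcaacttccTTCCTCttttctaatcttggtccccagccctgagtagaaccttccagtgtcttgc
Cx3cr1, chr9:120068297-120068546, minus strand: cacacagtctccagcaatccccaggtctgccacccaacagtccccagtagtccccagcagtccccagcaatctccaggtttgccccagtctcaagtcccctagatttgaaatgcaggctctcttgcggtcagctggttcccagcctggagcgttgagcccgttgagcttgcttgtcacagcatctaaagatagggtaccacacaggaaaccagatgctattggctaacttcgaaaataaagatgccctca
Marco, chr1:120505025-120505274, minus strand: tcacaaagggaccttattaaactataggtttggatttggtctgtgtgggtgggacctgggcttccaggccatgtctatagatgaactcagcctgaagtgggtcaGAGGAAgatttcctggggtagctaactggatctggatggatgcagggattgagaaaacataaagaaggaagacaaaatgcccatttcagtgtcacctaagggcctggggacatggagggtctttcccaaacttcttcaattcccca
The letters searched, on both strands, were GAGGAA for the PU.1 purine box and TTGCNNAA for C/EBP, which do not overlap each other. In the same window, 23.3% of all 32851 promoters held the first and 9.6% the second. Fcgr1 and Marco each held 1 purine box, Cx3cr1 held 0, and of the other receptors in the table Mrc1 held 3 and Ccr2 held 0. None of these 5 promoters held the C/EBP letters. These matches are a description of the letters and not of binding.

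Across the 10 receptors, 9 had a lower mean in the Drosha-deleted group than in the control group, and Marco had a higher one. The median difference was -0.45, beside 0 over all 23020 features. In limma's moderated test with Benjamini-Hochberg adjustment over all features, 1 receptor was significantly lower in the Drosha-deleted group (Cd14) and 0 were higher, where 0.0478% of all features were called lower and 0.122% higher. These counts include Msr1, which passed the filter on dim probes through the control group, where it is high, and whose differences are therefore given as a description. Of the other 9 receptors, 3 (Cd14, Fcgr1 and Cx3cr1) were lower on every Drosha-deleted array than on any control array, which 10.5% of all features were, and 1 (Marco) was higher on every one, which 12.6% were. The same 3 were lower and the same 1 higher at an unadjusted p under 0.05, beside 11.5% and 15.5% of all features. For the Dicer-deleted group, 9 of 10 means were again lower than the control mean, with a median difference of -0.32, but 0 receptors were called in either direction, where 0.013% and 0.00434% of all features were called lower and higher. At an unadjusted p under 0.05, 0 receptors were lower and 1 (Marco) was higher, beside 9.11% and 12.8% of all features. For 0 receptors did the Dicer-deleted arrays all lie below, or all lie above, the control arrays, beside 9.95% and 11.7% of all features. Both comparisons share the same 3 control arrays.

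**Figure D1:**
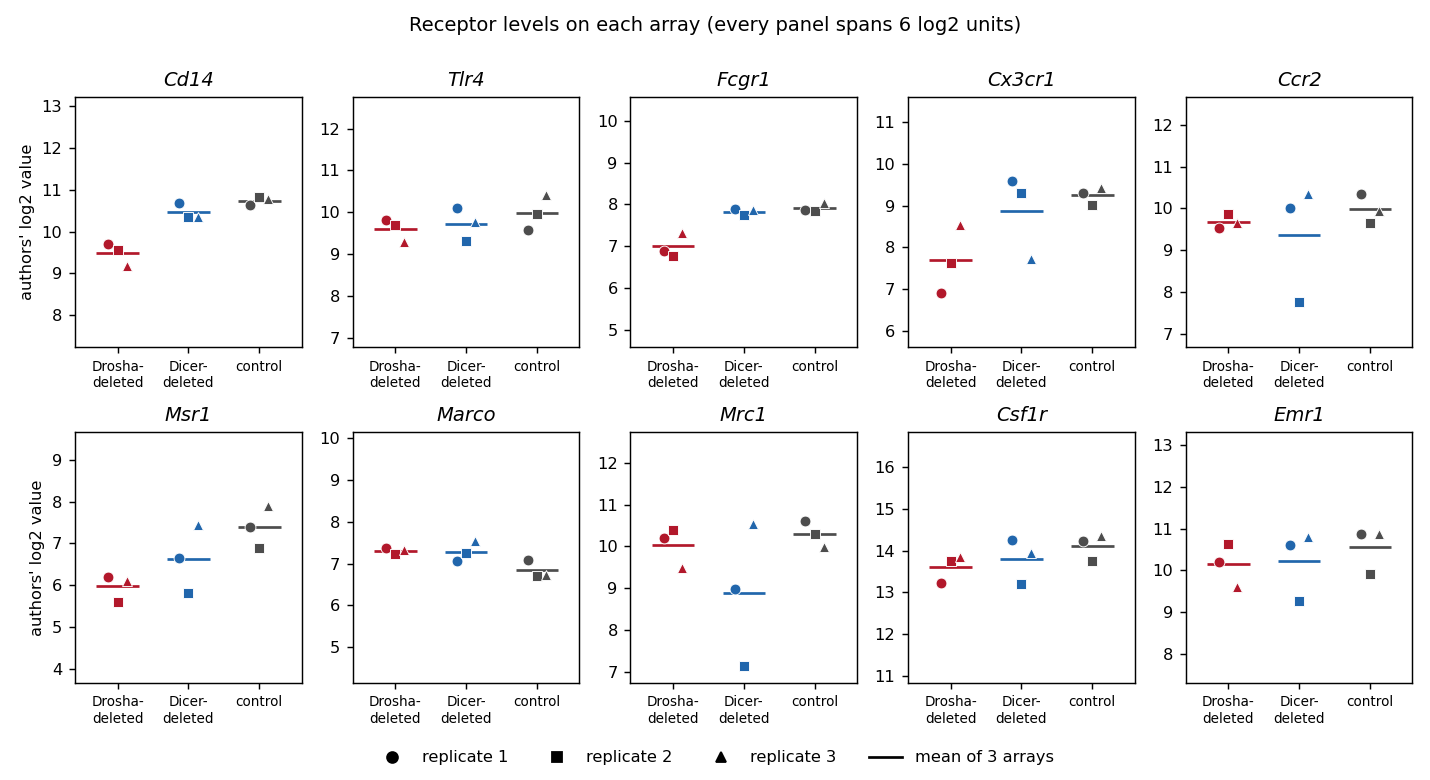
The authors' log2 value of each receptor on each of the 9 arrays, with Drosha-deleted, Dicer-deleted and control arrays from left to right, a bar at each group's mean, and a marker shape for each replicate number. Cd14 and Fcgr1 lie lower on all 3 Drosha-deleted arrays than on any other array, whereas Ccr2 and Mrc1 are lowest on Dicer-deleted replicate 2.

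Cd14, the co-receptor that hands lipopolysaccharide to the TLR4 complex, had the clearest difference. It was at 9.71, 9.57 and 9.18 on the Drosha-deleted arrays, at 10.68, 10.35 and 10.35 on the Dicer-deleted arrays, and at 10.63, 10.83 and 10.77 on the control arrays. The Drosha-deleted arrays were the 3 lowest of the 9, and the Dicer-deleted arrays overlapped the control arrays. Cd14 fell by 1.26 in the Drosha-deleted group relative to control (SE 0.16, 95% interval -1.63 to -0.89, adjusted p = 0.03), a 2.4-fold lower level, and was the 24th feature of the array by p. Its difference from control in the Dicer-deleted group was -0.29 (interval -0.66 to 0.09, adjusted p = 0.318). Set directly against the Dicer-deleted group, Cd14 in the Drosha-deleted group differed by -0.97 (SE 0.16, interval -1.35 to -0.6), with an adjusted p of 0.15 and an unadjusted p of 0.000222, and without overlap, as for 6.79% of all features. For Drosha-deleted against control, the call ended without control replicate 2 (adjusted p = 0.147), control replicate 3 (0.141), Drosha-deleted replicate 1 (0.077) or 2 (0.142), or Dicer-deleted replicate 1 (0.0564) or 2 (0.0617), with the difference between -1.37 and -1.11 over all 9 such fits. From the scanner signals the difference was -0.33 with all 9 arrays, where the median of all features was 0.36, and -1.26 without the array of control replicate 2 (adjusted p = 0.799 and 0.149). With normexp background correction, which kept the array of control replicate 2, it was -0.03. The Cd14 probe lies on chromosome 18 from 36884969 to 36885028 (mm9, as are all probe positions below, from the scanner files).

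Tlr4, the signalling receptor for lipopolysaccharide, showed no separation of the groups. Its levels were 9.81, 9.69 and 9.29 on the Drosha-deleted arrays, 10.09, 9.31 and 9.77 on the Dicer-deleted arrays, and 9.58, 9.95 and 10.4 on the control arrays. Control replicate 1 was below 2 of the 3 Drosha-deleted arrays and below 2 of the 3 Dicer-deleted arrays. Its difference from control was -0.38 in the Drosha-deleted group (interval -0.97 to 0.21, adjusted p = 0.358) and -0.25 in the Dicer-deleted group (interval -0.84 to 0.34, adjusted p = 0.571). The sign turned in the scanner signals with all arrays, with normexp, and when control replicate 1 alone stood for the control, where the difference was 0.02 in the Drosha-deleted group and 0.15 in the Dicer-deleted group. The probe, printed as 2 spots, lies on chromosome 4 from 66503470 to 66503529.

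The lipopolysaccharide partners, 16 genes of the co-receptors, adaptors and related Toll-like receptors, were all tested, and 0 were called lower or higher in any of the 4 comparisons (Drosha-deleted, Dicer-deleted and both deletions against control, and Drosha-deleted against Dicer-deleted). Their median difference from control was -0.19 in the Drosha-deleted group and -0.03 in the Dicer-deleted group. At an unadjusted p under 0.05 for both deletions against control, 4 were lower and 2 higher, beside 13.2% and 17% of all features. With the smallest p in that comparison were Ly96 (MD-2, the lipopolysaccharide-binding partner of TLR4) at -0.94, Tlr9 (a receptor for unmethylated CpG DNA) at 0.77 and Cd180 (a TLR4-like receptor) at -0.56, with adjusted p of 0.0733, 0.0886 and 0.0909. Ly96 was at 8.71, 8.46 and 8.55 on the Drosha-deleted arrays, at 8.54, 8.53 and 8.87 on the Dicer-deleted arrays, and at 8.88, 9.74 and 10.05 on the control arrays. Control replicate 1 lay next to the deletion arrays and the other 2 controls well above them. Tlr9 showed the same arrangement in reverse, at 10.93 to 11.17 in the Drosha-deleted group and 10.9 to 11.12 in the Dicer-deleted group, against 10.97, 9.91 and 9.87 on the control arrays. Without control replicate 1, Ly96 passed the threshold (-1.28, adjusted p = 0.000425), as did Tlr9 (1.13, adjusted p = 0.000229) and Cd180 (-0.72, adjusted p = 0.0103), in a fit in which 8598 features (37.4% of all) passed.

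Fcgr1, the high-affinity receptor for IgG, was, like Cd14, lowest on the 3 Drosha-deleted arrays. It was at 6.89, 6.77 and 7.32 on the Drosha-deleted arrays, at 7.88, 7.75 and 7.86 on the Dicer-deleted arrays, and at 7.87, 7.85 and 8.03 on the control arrays. The highest Drosha-deleted array lay below the lowest array of either other group, while the Dicer-deleted and control arrays together spanned only 7.75 to 8.03. The difference of -0.92 between Drosha-deleted and control (SE 0.15, interval -1.27 to -0.57) missed the threshold (adjusted p = 0.0602) and was the 80th by p of all features. It passed without control replicate 1 (adjusted p = 0.00473, in a fit in which 33.6% of all features passed) or without Drosha-deleted replicate 3 (0.0302, 0.261% of all features), and the sizes over the 9 fits that left out an array were -1.08 to -0.81. In the Dicer-deleted group the difference was -0.09 (interval -0.43 to 0.26, adjusted p = 0.755). The direct difference of Drosha-deleted from Dicer-deleted was -0.83 (interval -1.18 to -0.48, adjusted p = 0.205, unadjusted p = 0.000429), again without overlap. The probe lies on chromosome 3 from 96086839 to 96086898.

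Of 9 other Fc receptor and integrin genes, all tested, 0 were called in any of the 4 comparisons, and the median difference from control was 0.11 in the Drosha-deleted group and -0.16 in the Dicer-deleted group. At an unadjusted p under 0.05 for both deletions against control, 0 were lower and 1 higher, beside 13.2% and 17% of all features. This was Itgam, the CD11b integrin chain of myeloid cells, with a difference of 0.71 (adjusted p = 0.0984). Itgam was at 14.52 to 15.3 in the Drosha-deleted group and 14.68 to 14.96 in the Dicer-deleted group, against 14.7, 13.86 and 13.83 on the control arrays, so that control replicate 1 again lay among the deletion arrays. Sirpa, the receptor for CD47, followed at -0.47 (adjusted p = 0.189), and Syk, the kinase downstream of Fc receptors and named Sykb on the array, at 0.32 (adjusted p = 0.25).

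Cx3cr1, the fractalkine receptor, had the widest difference by size in the Drosha-deleted group and also a wide spread. Its levels were 6.92, 7.64 and 8.54 on the Drosha-deleted arrays, 9.6, 9.31 and 7.73 on the Dicer-deleted arrays, and 9.3, 9.02 and 9.43 on the control arrays. Every Drosha-deleted array lay below every control array, and of the Dicer-deleted arrays only replicate 3 came within the Drosha-deleted range. The Drosha-deleted difference from control was -1.55 (SE 0.51, interval -2.71 to -0.39, adjusted p = 0.123), and the Dicer-deleted difference was -0.37 (interval -1.53 to 0.79, adjusted p = 0.68), which became 0.2 without Dicer-deleted replicate 3. A second probe, dimmer, gave 5.76, 5.91 and 6.34 on the Drosha-deleted arrays, 7.35, 6.94 and 6.17 on the Dicer-deleted arrays, and 6.55, 7.21 and 7.49 on the control arrays. Its Drosha-deleted arrays too lay below its control arrays, with a smaller difference of -1.08, and Dicer-deleted replicate 3 was again the lowest of its group. The first probe lies on chromosome 9 from 119957811 to 119957870.

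Ccr2, the receptor that brings inflammatory monocytes out of the marrow, was at 9.53, 9.87 and 9.64 on the Drosha-deleted arrays, at 10.01, 7.76 and 10.34 on the Dicer-deleted arrays, and at 10.34, 9.65 and 9.94 on the control arrays. All arrays lay within about a unit of each other except Dicer-deleted replicate 2, the lowest. Its differences from control were -0.3 in the Drosha-deleted group (interval -1.59 to 0.99, adjusted p = 0.754) and -0.61 in the Dicer-deleted group (interval -1.9 to 0.68, adjusted p = 0.532). Without Dicer-deleted replicate 2, that second difference was 0.2. The probe lies on chromosome 9 from 124022948 to 124023007.

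Of 10 chemokine ligands and related receptors, all tested, 0 were called in any of the 4 comparisons, with a median difference from control of -0.29 in the Drosha-deleted group and -0.56 in the Dicer-deleted group. For both deletions against control, 3 were lower and 0 higher at an unadjusted p under 0.05, beside 13.2% and 17% of all features. The 3 include Ccr1, whose part in that count is a description, because it passed the filter through the control group. Ccl2, the main ligand of CCR2, was at 11.64, 10.83 and 10.6 on the Drosha-deleted arrays and at 10.28, 9.44 and 11.95 on the Dicer-deleted arrays, against 12.23, 11.46 and 12.19 on the control arrays. Its difference for both deletions was -1.17 (SE 0.49, adjusted p = 0.152), and Dicer-deleted replicate 2 was its lowest array, as for Ccr2. Ccr1, a receptor for CCL3, passed the filter through the control group, being well above background on 2 of 3 arrays in each deletion group, and its difference for both deletions, as a description, was -0.64.

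Msr1, scavenger receptor A, was well above background on 2 of 3 arrays in each deletion group and on all 3 control arrays, so that it passed the filter through the control group; the other 9 receptors were well above background on all 9 arrays. Its levels were 6.2, 5.6 and 6.11 on the Drosha-deleted arrays, 6.65, 5.81 and 7.44 on the Dicer-deleted arrays, and 7.39, 6.88 and 7.9 on the control arrays. The arrays not well above background were replicate 2 of the Drosha-deleted and replicate 2 of the Dicer-deleted group, each the lowest of its group. Every Drosha-deleted array lay below every control array, and the Dicer-deleted arrays spanned from the Drosha-deleted to the control range. As a description, the differences from control were -1.42 in the Drosha-deleted group and -0.76 in the Dicer-deleted group, and neither was called. Its second probe, which the scanner files list against a further transcript of the gene, gave -0.95 in the Drosha-deleted group and -0.59 in the Dicer-deleted group. The Drosha-deleted arrays on that probe, at 5.66 to 6.51, also stayed below the control arrays, at 6.8 to 7.4. The first probe lies on chromosome 8 from 40689158 to 40689217.

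Marco, a scavenger receptor of marginal-zone and alveolar macrophages, was the receptor with the opposite sign. It was at 7.38, 7.23 and 7.32 on the Drosha-deleted arrays, at 7.05, 7.26 and 7.55 on the Dicer-deleted arrays, and at 7.09, 6.71 and 6.73 on the control arrays. Controls 2 and 3 were its lowest arrays, and control replicate 1 lay at the bottom of the Dicer-deleted range. The differences from control were 0.47 in the Drosha-deleted group (SE 0.16, interval 0.1 to 0.83, adjusted p = 0.127) and 0.45 in the Dicer-deleted group (interval 0.08 to 0.81, adjusted p = 0.185). Without control replicate 1 both passed the threshold, at 0.59 in the Drosha-deleted group (adjusted p = 0.0193) and 0.57 in the Dicer-deleted group (adjusted p = 0.0248), in fits in which 7743 features (33.6%) and 7020 features (30.5%) passed. With control replicate 1 alone as the control they were 0.22 and 0.2. With normexp background correction on the scanner signals, which kept control replicate 2 and its flagged spots, they were -1.03 and -1. In the scanner signals without flagged spots, control replicate 2 had no value for Marco. There the Dicer-deleted difference was 0.82 (adjusted p = 0.665). The scanner files place this probe on chromosome 1 from 122371115 to 122371134.

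Mrc1, the mannose receptor, spread widely among the Dicer-deleted arrays. It was at 10.2, 10.4 and 9.48 on the Drosha-deleted arrays, at 8.97, 7.15 and 10.54 on the Dicer-deleted arrays, and at 10.61, 10.3 and 9.99 on the control arrays. Dicer-deleted replicate 3 lay within the control range and replicates 1 and 2 were the lowest arrays of the 9. The Dicer-deleted difference from control was -1.41 (SE 0.7, interval -2.99 to 0.17, adjusted p = 0.263), and it ran from -2.24 to -0.54 as arrays were left out. In the Drosha-deleted group it was -0.27 (interval -1.85 to 1.31, adjusted p = 0.821), and the direct difference of Drosha-deleted from Dicer-deleted was 1.14 (interval -0.44 to 2.72, adjusted p = 0.999). The probe lies on chromosome 2 from 14253273 to 14253332.

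Of 11 other scavenger and phagocytic receptors, 7 passed the filter and 0 were called in any of the 4 comparisons, and the tested genes had a median difference from control of -0.37 in the Drosha-deleted group and -0.28 in the Dicer-deleted group. For both deletions against control, 2 were lower and 1 higher at an unadjusted p under 0.05, beside 13.2% and 17% of all features. Cd36, a receptor for oxidised lipoproteins, was at 7.42, 6.87 and 7.91 on the Drosha-deleted arrays and at 6.83, 6.22 and 7.59 on the Dicer-deleted arrays, against 7.85, 8.72 and 7.98 on the control arrays. Its difference for both deletions was -1.04 (SE 0.34, adjusted p = 0.0964), with Drosha-deleted replicate 3 inside the control range. For Stab1, an endocytic receptor of macrophages and sinusoidal endothelium, the difference was -0.49 (adjusted p = 0.15). Scarb1, a receptor for high-density lipoprotein, was at 0.29 (adjusted p = 0.159). The 4 genes that failed the filter were Cd163, Colec12, Timd4 and Cd5l.

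Csf1r, on which survival of the lineage depends, was at 13.23, 13.75 and 13.84 on the Drosha-deleted arrays, at 14.26, 13.2 and 13.93 on the Dicer-deleted arrays, and at 14.22, 13.75 and 14.34 on the control arrays. The groups overlapped. The differences from control were -0.49 in the Drosha-deleted group (SE 0.29, interval -1.15 to 0.16, adjusted p = 0.29) and -0.31 in the Dicer-deleted group (interval -0.96 to 0.34, adjusted p = 0.532). Its 3 probes disagreed in direction. The second gave -0.51 in the Drosha-deleted group and 0 in the Dicer-deleted group, whereas probe 3 gave 0.41 and 0.51, with 9.46, 9.71 and 9.32 on the Drosha-deleted arrays, 9.76, 9.37 and 9.65 on the Dicer-deleted arrays, and 9.68, 8.91 and 8.67 on the control arrays. On probe 3, control replicate 1 lay with the deletion arrays and controls 2 and 3 below them. The first probe lies on chromosome 18 from 61290725 to 61290784.

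**Figure D2:**
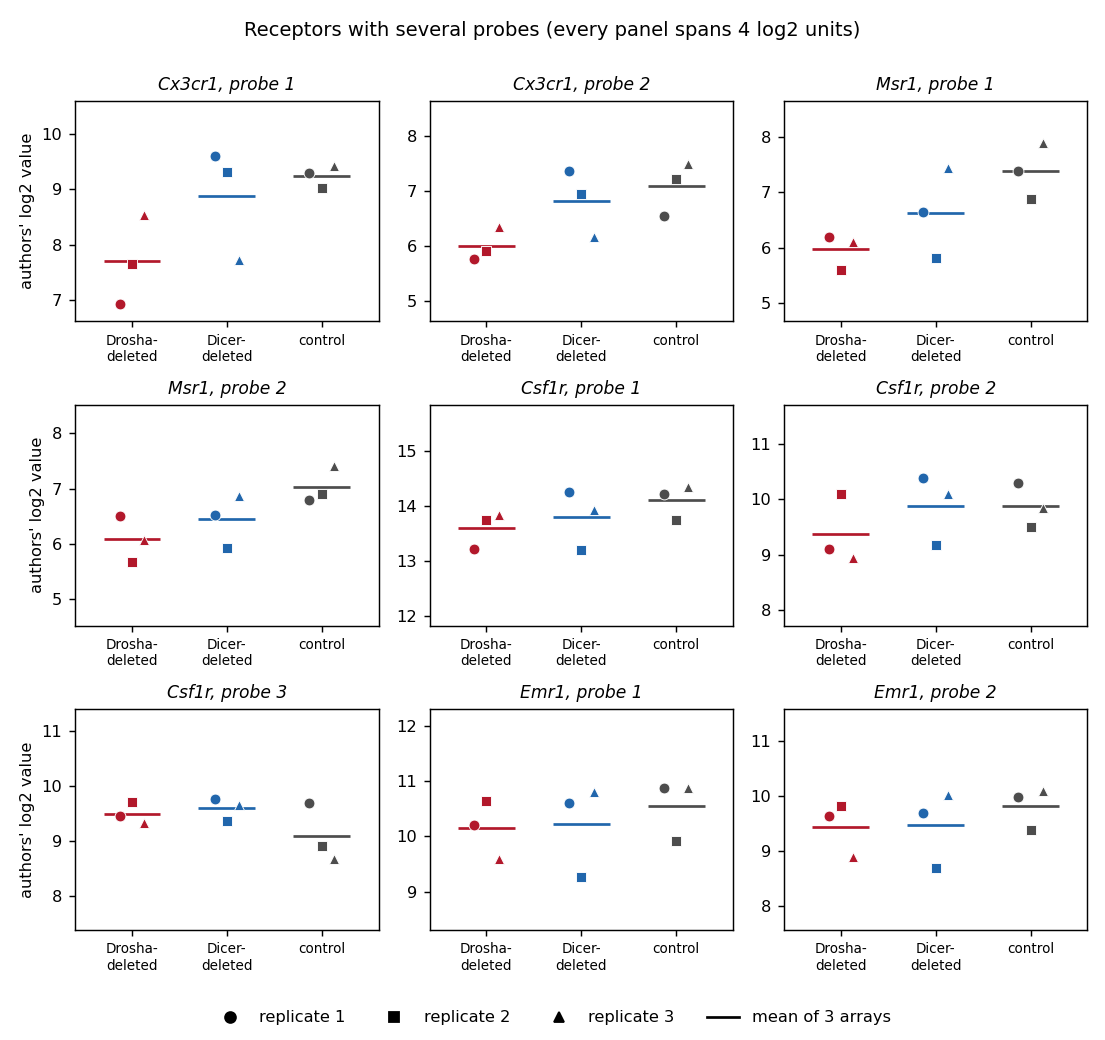
The authors' log2 value of every probe of the 4 receptors with more than 1 probe, by array, with Drosha-deleted, Dicer-deleted and control arrays from left to right, bars at group means and a marker shape for each replicate number. Both Cx3cr1 probes and both Msr1 probes put the Drosha-deleted arrays below the control arrays, as does the brightest probe of 10.5% of all features. Msr1 passed the filter on dim probes through the control group, so its values are a description. Probe 3 of Csf1r has a difference of 0.41, opposite in sign to the -0.49 of the first.

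Emr1, the F4/80 antigen, was at 10.21, 10.64 and 9.6 on the Drosha-deleted arrays, at 10.6, 9.27 and 10.8 on the Dicer-deleted arrays, and at 10.88, 9.92 and 10.87 on the control arrays. Within-group ranges of about a unit or more left no separation between groups. Its differences from control were -0.4 in the Drosha-deleted group (interval -1.41 to 0.6, adjusted p = 0.572) and -0.33 in the Dicer-deleted group (interval -1.34 to 0.67, adjusted p = 0.666), and its second probe gave -0.37 and -0.35. The first probe lies on chromosome 17 from 57622868 to 57622927.

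Of 15 genes of the growth factor axis, namely the ligands of CSF1R, related receptors and the transcription factors of the lineage, all were tested and 0 were called in any of the 4 comparisons, with a median difference from control of -0.18 in the Drosha-deleted group and -0.35 in the Dicer-deleted group. For both deletions against control, 2 (Maf and Il34) were lower and 0 higher at an unadjusted p under 0.05, beside 13.2% and 17% of all features. The part of Maf in that count is a description, because it passed the filter through the control group. Maf, a transcription factor of mature macrophages, was not well above background on any Drosha-deleted array and on only 1 Dicer-deleted array, and was on all 3 control arrays. It was at 5.76, 5.57 and 5.88 on the Drosha-deleted arrays and at 5.71, 5.71 and 6.1 on the Dicer-deleted arrays, against 6.41, 7.09 and 7.17 on the control arrays. Maf passed the filter through the control group, where it is high, so its values are a description. Its measured means were 5.74 in the Drosha-deleted group and 6.89 in the control group, at least a 2.22-fold lower level. The fold is a bound because no Drosha-deleted array was well above background. That difference was not called. The difference of Il34, the second ligand of CSF1R, was -0.68 (adjusted p = 0.0966), with control replicate 3 at 7.9 and all other arrays at or below 6.95. Cebpb, which encodes C/EBPβ, followed at -0.36 (adjusted p = 0.209).

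**Figure D3:**
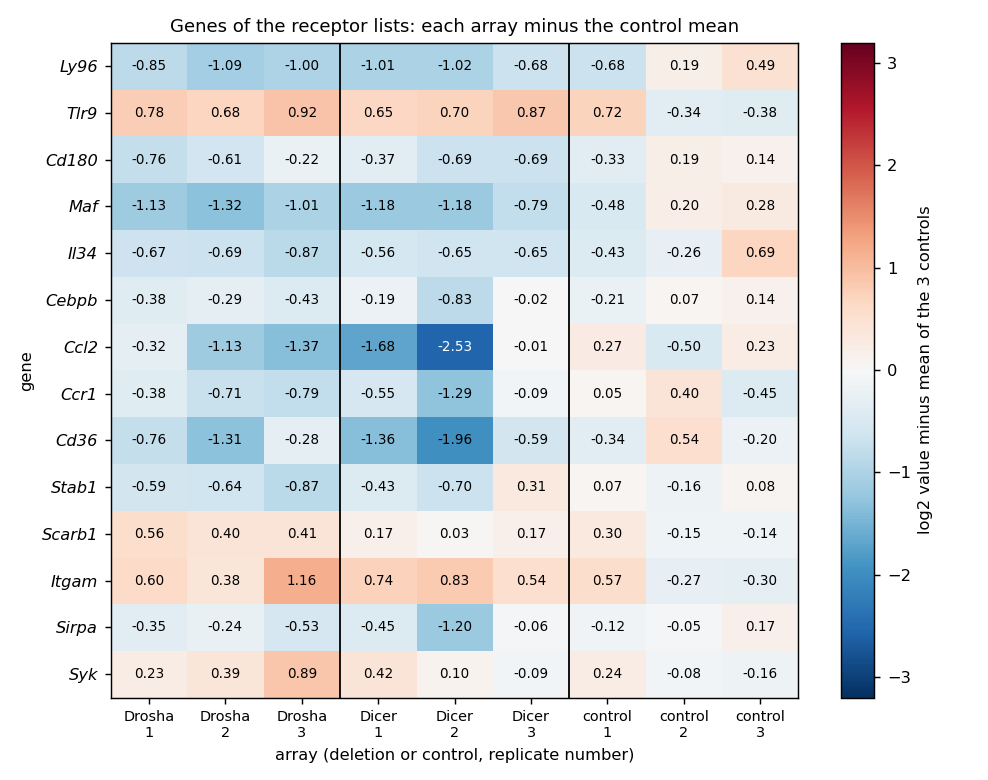
The log2 value of each array minus the mean of the 3 control arrays for 14 named genes of the receptor lists, rows in the order lipopolysaccharide partners, growth factor axis, chemokines, scavenger receptors, Fc receptors and integrins, and columns in the order Drosha-deleted, Dicer-deleted, control. For 10 of the 14 genes, which were picked by their p for both deletions against control, control replicates 2 and 3 lie beyond all the other 7 arrays, as they do for 45.4% of all features and for 2 of the 10 receptors.

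Fitted differences with their intervals put the receptors into a pair with narrow intervals (Cd14 and Fcgr1, SE 0.16 and 0.15), Marco with an SE of 0.16 and the opposite sign, and a remainder with SEs of 0.26 to 0.7. Taking both deletions together against control, 0 receptors were called, where 0.0434% of all features were called lower and 0.0869% higher. At an unadjusted p under 0.05, 3 receptors (Cd14, Fcgr1 and Msr1) were lower and 1 (Marco) higher, beside 13.2% and 17% of all features. Msr1 passed the filter through the control group, so its part in that count is a description. Cd14 was nearest to the threshold at -0.77 (SE 0.14, adjusted p = 0.056). In the direct comparison of Drosha-deleted with Dicer-deleted, 0 receptors were called, where 0.00434% of all features were called lower and 0.0521% higher. Of the 10 means, 7 were lower in the Drosha-deleted group than in the Dicer-deleted group, and those of Ccr2, Mrc1 and Marco were higher. The Drosha-deleted arrays all lay below the Dicer-deleted arrays for 2 receptors (Cd14 and Fcgr1) and above them for 0, beside 6.79% and 8.61% of all features. At an unadjusted p under 0.05, 3 receptors (Cd14, Fcgr1 and Cx3cr1) were lower and 0 higher, beside 2.43% and 3.24% of all features, and for the other 7 receptors the interval included 0.

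**Figure D4:**
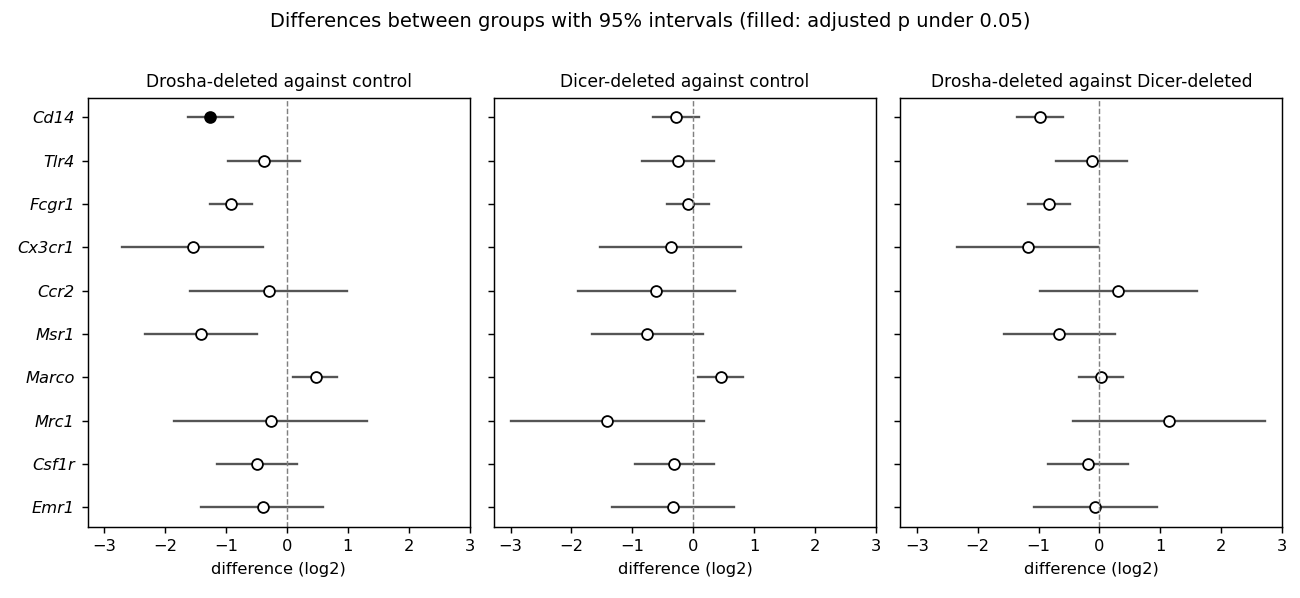
The difference in log2 level of each receptor for Drosha-deleted against control, Dicer-deleted against control, and Drosha-deleted against Dicer-deleted, as points with 95% intervals, filled where the adjusted p was under 0.05. Msr1 passed the filter on dim probes through the control group. The filled point is Cd14 in the first panel, at -1.26, and Marco is the receptor to the right of 0 in both comparisons with control.

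Dicer-deleted replicate 2 was the lowest of its group for Tlr4, Fcgr1, Ccr2, Msr1, Mrc1, Csf1r and Emr1. Averaged over the 10 receptors, each centred on its own mean, the arrays were at -0.35, -0.24 and -0.32 in the Drosha-deleted group, at 0.22, -0.64 and 0.28 in the Dicer-deleted group, and at 0.44, 0.13 and 0.48 in the control group. The average includes Msr1, which passed the filter through the control group, where it is high, so it is a description. On this average the Drosha-deleted arrays were low together, and Dicer-deleted replicate 2 was lower still, while replicates 1 and 3 lay within the control range. Marker levels of some other cell types were also low on that array. Its neutrophil markers averaged 13.16, against 14.53 and 15.03 in the other 2 Dicer-deleted arrays, its dendritic cell markers 9.99, against 10.23 and 10.53, its eosinophil markers 7.98, against 9.32 and 9.73, and its mast cell and basophil markers 9.64, against 10.34 and 10.75. Its LSK markers, at 11.68 against 11.57 and 11.43, and its erythroid markers, at 8.8 against 8.65 and 8.22, were the highest of its group. Its megakaryocyte markers, at 13.91, and its T-cell markers, at 8.88, lay between those of the other 2 arrays, and its B-cell markers, at 6.18, were just below 6.23 and 6.37. Control replicate 2, the lowest control over the 10 receptors, also had the lowest neutrophil markers of its group, at 13.65, against 15.12 and 14.25. The part of these cell types in the receptor values was not tested.

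**Figure D5:**
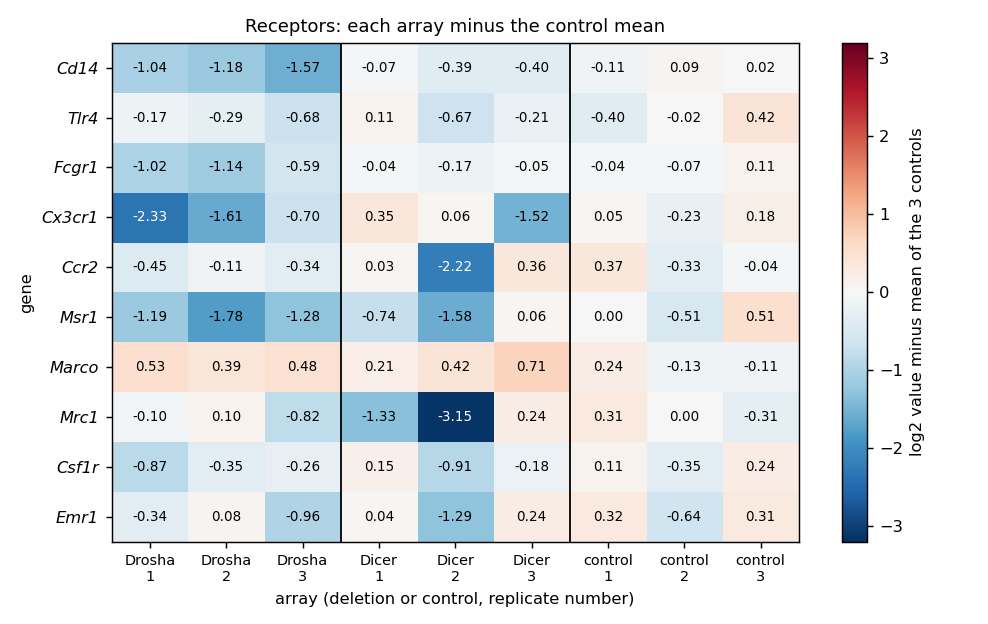
The log2 value of each array minus the mean of the 3 control arrays for the 10 receptors (rows), with Drosha-deleted, Dicer-deleted and control arrays as columns from left to right. Cd14, Fcgr1 and Cx3cr1 are lower on all 3 Drosha-deleted arrays than on any control array, as are 10.5% of all features. Msr1 is too, as a description, because it passed the filter on dim probes through the control group. Dicer-deleted replicate 2 has the values of -3.15 for Mrc1 and -2.22 for Ccr2.

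The features most like this averaged pattern over the 9 arrays were Dio2 (r = 0.966), Sirpb1b (0.959), Rnase4 (0.958), Cd80 (0.948) and Slc9a7 (0.946), chosen as the 5 highest correlations among features with a gene symbol. The arrays share the between-array normalization and the control arrays described above, so these values are a description. Leaving out any array kept the 5 correlations between 0.934 and 0.988. Dio2, which activates thyroid hormone, ranged from 9.39 to 9.63 in the Drosha-deleted group and from 9.14 to 10.02 in the Dicer-deleted group, against 9.85 to 10.03 in the control group. Sirpb1b, a signal-regulatory protein of myeloid cells, ranged more widely, from 7.75 to 8.17 in the Drosha-deleted group and from 7.39 to 10.03 in the Dicer-deleted group, against 8.83 to 9.87 in the control group. Cd80, the costimulatory ligand of antigen-presenting cells, ranged from 9.72 to 9.85 in the Drosha-deleted group and from 9.67 to 10.12 in the Dicer-deleted group, against 9.87 to 10.3 in the control group. For all 3 of these genes the lowest Dicer-deleted array was replicate 2.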

How the data were processed

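RNA of LSK cultures was hybridised to 9 Agilent one-colour (Cy3) arrays, 3 per group. Spot intensity was extracted with Agilent Feature Extraction 10.7.3.1, per the file headers. The authors' deposited table holds log2 values with nearly equal quantiles across arrays; the submitters' processing notes name limma, and the background step is not given in the sources used here. Rows were matched to probes by feature number. Probes well above background on all 3 arrays of at least 1 group were kept (31490 of 55681). For control replicate 2 this flag comes from the scanner file that stands apart. The brightest of all probes of a gene stood for it, and the 23020 genes whose brightest probe was kept were tested. Differences were tested with limma 3.58.1 (R 4.3.3; lmFit and eBayes, group means over all 9 arrays), two-sided, with Benjamini-Hochberg adjustment over all features at 0.05 (3 arrays a group limit its precision), after a check on simulated data.

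The receptors, gene lists and tests were chosen with earlier results of these data known. Named genes are the 10 receptors, the deleted genes, the 3 genes of each receptor list with the smallest p for both deletions against control (1 of the chemokine list is not reported here), and the 5 features most correlated with the receptors' mean pattern. Cd163 and Cd4 were chosen after their values were seen. Alternatives were scanner signals scaled to each array's 75th percentile, normexp (offset 50) with quantile normalization, other filters, probes, blocks and weights, and arrays left out.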

Additional observations from a re-analysis of the deposited data

How the results depend on the processing

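Leaving out each array in turn gave 4 to 7743 features for Drosha-deleted against control (39 with all arrays), 0 to 7020 for Dicer-deleted against control (4), 3 to 8598 for both deletions (30) and 4 to 16 for Drosha-deleted against Dicer-deleted (13); the highest count of each of the first 3 comparisons came without control replicate 1. Called receptors ranged from 0 to 3 (1 with all arrays), 0 to 1 (0) and 0 to 3 (0) in those 3 comparisons, and stayed at 0 in the last. Those called without control replicate 1 were Cd14, Fcgr1 and Marco for Drosha-deleted against control.

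In the order Drosha-deleted, Dicer-deleted and both deletions against control, then Drosha-deleted against Dicer-deleted, the other settings gave these counts of features where they moved beyond 1.5 times. Array weights gave 11642, 10026, 12072 and 150 features and 5, 1, 5 and 2 receptors. Scanner signals gave 7, 5 and 2 for all but the Dicer-deleted comparison, and 10, 3 and 5 without the array of control replicate 2. Normexp gave 1, 0, 0 and 1, with 2189, 1651, 2797 and 311 features at an unadjusted p under 0.05. No filter gave 25, 2 and 10 for the first 3, and a slide block 13, 6 and 7 for all but the Dicer-deleted comparison. Because control replicate 3 was alone on its slide, the slide block is the same fit as leaving out that array. Fitting only the groups compared gave 5 and 0 for the first 2. Leaving out control columns 2 and 3 together, a choice made after seeing the data, gave 21 for Dicer-deleted against control. In each of these settings except array weights and no filter, the receptor count for Drosha-deleted against control was 0 (scanner 0 with and without that array, normexp 0, slide block 0, groups compared 0, columns left out 0). With 1 control left, that array was assumed to vary like the other groups. The cause of these shifts was not tested.

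Replicate numbers did not pair the arrays: deviations from the group means correlated at -0.28 to 0.24 between arrays of the same number (9 pairs) and at -0.29 to 0.28 between different numbers (18 pairs). With the replicate number as a block the counts of features were 4, 0, 0 and 5 (5582, 4533, 6294 and 1164 at an unadjusted p under 0.05) and 0 receptors were called for Drosha-deleted against control, with Cd14 at -1.26 (adjusted p = 0.116).

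Signs turned in these cases, in which no value was called. With scanner signals of all arrays, the median of all features was 0.36, 0.38 and 0.37 in the 3 comparisons with control, and of the values that turned only that of Cd14 in the Dicer-deleted group lay above it. Drosha-deleted against control gave Tlr4 0.07 and Mrc1 0.21; Dicer-deleted gave Cd14 0.69, Csf1r 0.05, Tlr4 0.19, Emr1 0.01 and Fcgr1 0.02 (also 0.02 without the array of control replicate 2); both deletions gave Cd14 0.18, Tlr4 0.13, Cebpb 0.25 and Sirpa 0.17. With normexp, where these medians were 0.19, 0.18 and 0.18, Drosha-deleted gave Tlr4 0.36, Emr1 0.04, Mrc1 0.35 and Marco -1.03; Dicer-deleted gave Cd14 0.87, Tlr4 0.47, Emr1 0.09 and Marco -1; both deletions gave Cd14 0.42, Tlr4 0.42, Emr1 0.06, Marco -1.01, Sirpa 0.12, Cd180 0.01 and Stab1 0.08. Marco in the Drosha-deleted against the Dicer-deleted group was -0.03 with scanner signals, with or without that array, and with normexp. Array weights gave Mrc1 0.11 in the Drosha-deleted group, and the mean of all probes gave Csf1r 0.06 in the Dicer-deleted group. Without control columns 2 and 3, Tlr4 was 0.02, 0.15 and 0.08 in the Drosha-deleted, Dicer-deleted and both-deletion comparisons, and Scarb1 was -0.01 for both deletions. As arrays were left out in turn, Dicer-deleted against control ranged from -1.09 to 0.2 for Ccr2, -0.65 to 0.14 for Emr1 and -0.73 to 0.2 for Cx3cr1. Drosha-deleted against Dicer-deleted ranged from -0.1 to 0.15 for Marco, -0.34 to 0.06 for Tlr4, -0.55 to 0.22 for Emr1, -0.48 to 0.05 for Csf1r and -0.49 to 0.79 for Ccr2. Cd14 in the Drosha-deleted group against control was called in 6 of 19 alternatives, Fcgr1 in 3 and Marco in 2, and its difference ran from -1.37 to -0.03 for Cd14 and from -1.08 to -0.73 for Fcgr1. These 19 count the slide block and the fit without control replicate 3 separately, although they are the same fit.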

Other observations

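Cd163, the haemoglobin scavenger receptor of mature macrophages, failed the filter on dim probes and was not tested. Its deposited log2 values were 5.22, 4.86 and 4.89 on the Drosha-deleted arrays and 4.96, 5.03 and 5.11 on the Dicer-deleted arrays, none of them well above background, against 8.65, 6.41 and 5.1 on the control arrays. It was well above background on control replicates 1 and 2 and not on control replicate 3. Control replicate 1, which lay near the deletion arrays for Ly96, Tlr9 and Itgam, was the highest array for Cd163.

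Cd4, listed here as a T-cell marker, was at 12.63, 12.59 and 12.53 on the Drosha-deleted arrays and at 12.47, 12.49 and 12.69 on the Dicer-deleted arrays, against 12.24 on control replicate 1 and 10.43 on control replicate 2. Control replicate 3 lay near control replicate 2, and control replicate 1 was again closer to the deletion arrays.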
